A study of Mus musculus with 6 samples.

Results

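The genes that write and erase cytosine methylation were examined in mouse erythroblast cultures treated with NUP-17d, a small molecule made to inhibit the adaptor protein Plek2. The set held the DNA methyltransferases Dnmt1, Dnmt3a and Dnmt3b, the hemimethylated DNA readers Uhrf1 and Uhrf2, the methylcytosine dioxygenases Tet1, Tet2 and Tet3, and the thymine DNA glycosylase Tdg. Members were taken from the tables by gene symbol, and 9 of 9 had a row in each of the 6 tables, of 17060 genes listed in at least 1 table. All 9 passed the filter on low counts that left 12306 genes for testing.

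Lineage-negative bone marrow cells of wild-type mice were purified and grown in a culture system that uses erythropoietin (EPO) to drive red cell development. For 48 h the cells received either NUP-17d or the solvent DMSO, and poly(A) RNA was then sequenced from 3 cultures of each group. The groups share the genotype and the EPO culture, and by the labels differ only in the agent. The labels state neither the age of the mice nor whether the 3 cultures came from separate animals, so p-values measure the spread between these cultures.

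Cytosines in CG pairs are methylated by DNMT3A and DNMT3B on new sites, and DNMT1 restores the mark on the daughter strand after replication, where UHRF1 recruits it to hemimethylated DNA. TET enzymes oxidize 5-methylcytosine, and TDG excises the later oxidation products so that base excision repair can put back an unmodified cytosine. Red cell precursors lose DNA methylation across the genome as they divide and mature, and TET2 and DNMT3A are among the genes most often mutated in clonal blood disorders.

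Library totals lay between 20278433 and 20419018 expected counts in DMSO cultures and between 20076409 and 20170197 in NUP-17d cultures. Hemoglobin genes took 18.3 to 20.3% of the counts in DMSO cultures and 11.8 to 13.1% in NUP-17d cultures, so levels below are counts relative to library size (CPM) scaled with trimmed mean of M values (TMM) factors, which ranged from 0.887 to 0.930 with DMSO and from 1.08 to 1.11 with NUP-17d. With library totals alone the median log2 fold change of all tested genes was 0.28, against 0.01 with TMM, and every direction given below is relative to the TMM scale unless stated. The erythroblast label was checked against 12 erythroid genes, and all 12 were expressed, the EPO receptor gene Epor lowest at 67.4 to 71.1 CPM in DMSO cultures. In these bulk libraries, fewer cells of a type and less RNA per cell cannot be told apart.

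Start regions of the members the results turn on are shown first, as the sequence around which each gene is read. Each is a RefSeq window of the mouse assembly GRCm38.p6 (the same coordinates as mm10), 300 bases long and reaching just past a transcript start, read 5′ to 3′ on the gene's strand. Of the windows annotated for each gene, the one with most CG pairs was printed. Capitals mark CCAAT on either strand, which reads ATTGG when it lies on the other strand.
Uhrf1 (chr17:56304063-56304362, plus strand): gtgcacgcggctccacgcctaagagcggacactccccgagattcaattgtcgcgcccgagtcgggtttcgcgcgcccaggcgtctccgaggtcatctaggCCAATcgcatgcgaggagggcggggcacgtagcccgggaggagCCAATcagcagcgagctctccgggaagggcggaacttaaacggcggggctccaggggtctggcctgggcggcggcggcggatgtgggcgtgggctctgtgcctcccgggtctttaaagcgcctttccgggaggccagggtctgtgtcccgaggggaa
Dnmt1 (chr9:20952574-20952873, minus strand): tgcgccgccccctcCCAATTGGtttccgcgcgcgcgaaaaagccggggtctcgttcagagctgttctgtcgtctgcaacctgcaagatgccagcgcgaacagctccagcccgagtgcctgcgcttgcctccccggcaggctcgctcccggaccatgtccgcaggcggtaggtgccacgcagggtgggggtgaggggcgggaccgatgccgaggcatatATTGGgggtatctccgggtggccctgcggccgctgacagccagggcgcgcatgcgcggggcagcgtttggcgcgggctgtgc
Dnmt3a (chr12:3806910-3807209, plus strand): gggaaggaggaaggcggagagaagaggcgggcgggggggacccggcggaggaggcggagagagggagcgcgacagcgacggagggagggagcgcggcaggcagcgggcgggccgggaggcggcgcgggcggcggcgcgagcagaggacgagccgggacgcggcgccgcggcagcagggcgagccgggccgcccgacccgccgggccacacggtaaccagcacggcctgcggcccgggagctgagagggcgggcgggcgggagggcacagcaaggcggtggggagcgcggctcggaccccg

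The Uhrf1 and Dnmt1 windows held 33 CG pairs each, more than 91.4% of 32851 mouse promoter windows, and the Dnmt3a window held 47, more than 98.6%. As the windows were picked for their CG pairs, these high ranks were partly fixed in advance. In CG pairs the other Uhrf1 window exceeded 60.4% of all windows, and the other Dnmt1 windows 14.1% and 60.4%. The other Dnmt3a windows exceeded 98.4% and 70.3%. CCAAT occurred 2 times in the Uhrf1 window and 3 times in the Dnmt1 window, and 0 times in the Dnmt3a window. Over the 14 windows of the 9 members, CCAAT was found in 6, all of them of Dnmt1, Uhrf1, Tet3 or Tdg, against 37.4% of all promoter windows. The GC box GGGCGG, on either strand, was in 11 of 14 windows against 35.7% of all windows, and the Tet2 window held 57 CG pairs, more than 99.8% of all windows. Shares of all windows also count genes not tested here, so they are an unlike background for these expressed genes. By gene, 8 of 9 members had a GC box in a window, beside 6570 tested genes with it and 3176 without. CCAAT was in a window of 4 of 9 members, beside 4216 tested genes with it and 5530 without. The strict E2F letters TTTCCCGC or TTTGGCGC were in 1 of 14 windows, the Dnmt1 window above, against 1.56% of all windows, and the GATA letters AGATAA in 0 of 14 against 11.2%. The tables do not tell which start was used in these cells.

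Per transcript length, the maintenance genes stood far above the rest. Dnmt1 had the highest level at 53.5 ± 1.44 FPKM (fragments scaled to transcript length and library size) in DMSO cultures (SD, n = 3), followed by Uhrf1 at 44.5 ± 0.557 FPKM. Uhrf2 at 16.7 ± 0.517 FPKM and Tdg at 15.6 ± 0.654 FPKM came next, and Tet3 was the highest TET gene at 7.38 ± 0.248 FPKM. The de novo enzymes Dnmt3b and Dnmt3a had 4.21 ± 0.179 and 3.85 ± 0.297 FPKM, Tet2 had 3.19 ± 0.131 FPKM, and Tet1 was lowest at 0.367 ± 0.0473 FPKM.

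**Figure D1:**
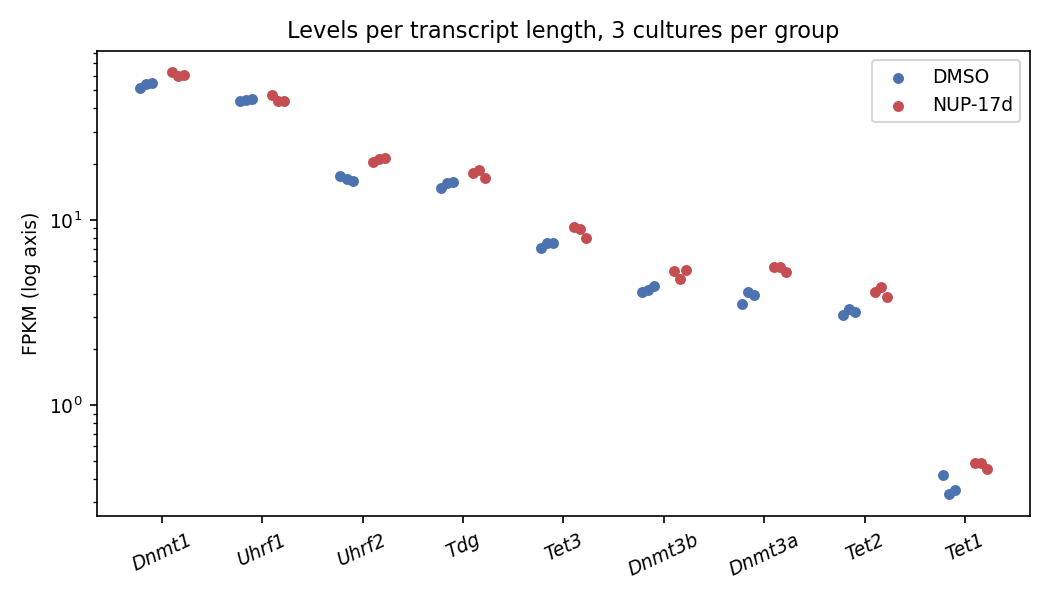
FPKM of the 9 genes in each culture on a log axis, with DMSO in blue and NUP-17d in red and 1 point per culture. The genes keep their order from Dnmt1 to Tet1 in both groups, except that Dnmt3a exceeds Dnmt3b in 2 of 3 NUP-17d cultures.

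This order was the same in all 6 cultures for each pair of neighbours but 1. Dnmt3b exceeded Dnmt3a in 3 of 3 DMSO cultures and in 1 of 3 NUP-17d cultures. Uhrf2 and Tdg were the closest pair that kept its order, with Uhrf2 from 1.01 to 1.27 times Tdg. Dnmt1 made up 86.9 ± 0.299% of the summed DNMT FPKM with DMSO, and Tet3 made up 67.5 ± 0.405% of the summed TET FPKM.

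The question of the comparison was which genes respond to NUP-17d during EPO-driven culture. Of the 9 members, 2 passed the test, which is 22.2%, against 35.3% of all tested genes. Uhrf1 was the 1 member that was lower, against 18.9% of genes lower, and Dnmt3a was the 1 member that was higher, against 16.4% of genes higher. The CPM of the groups did not overlap for 3 of 9 members, Uhrf1, Dnmt3a and Dnmt1, against 46.0% of tested genes. The 7 others gave no call.

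**Figure D2:**
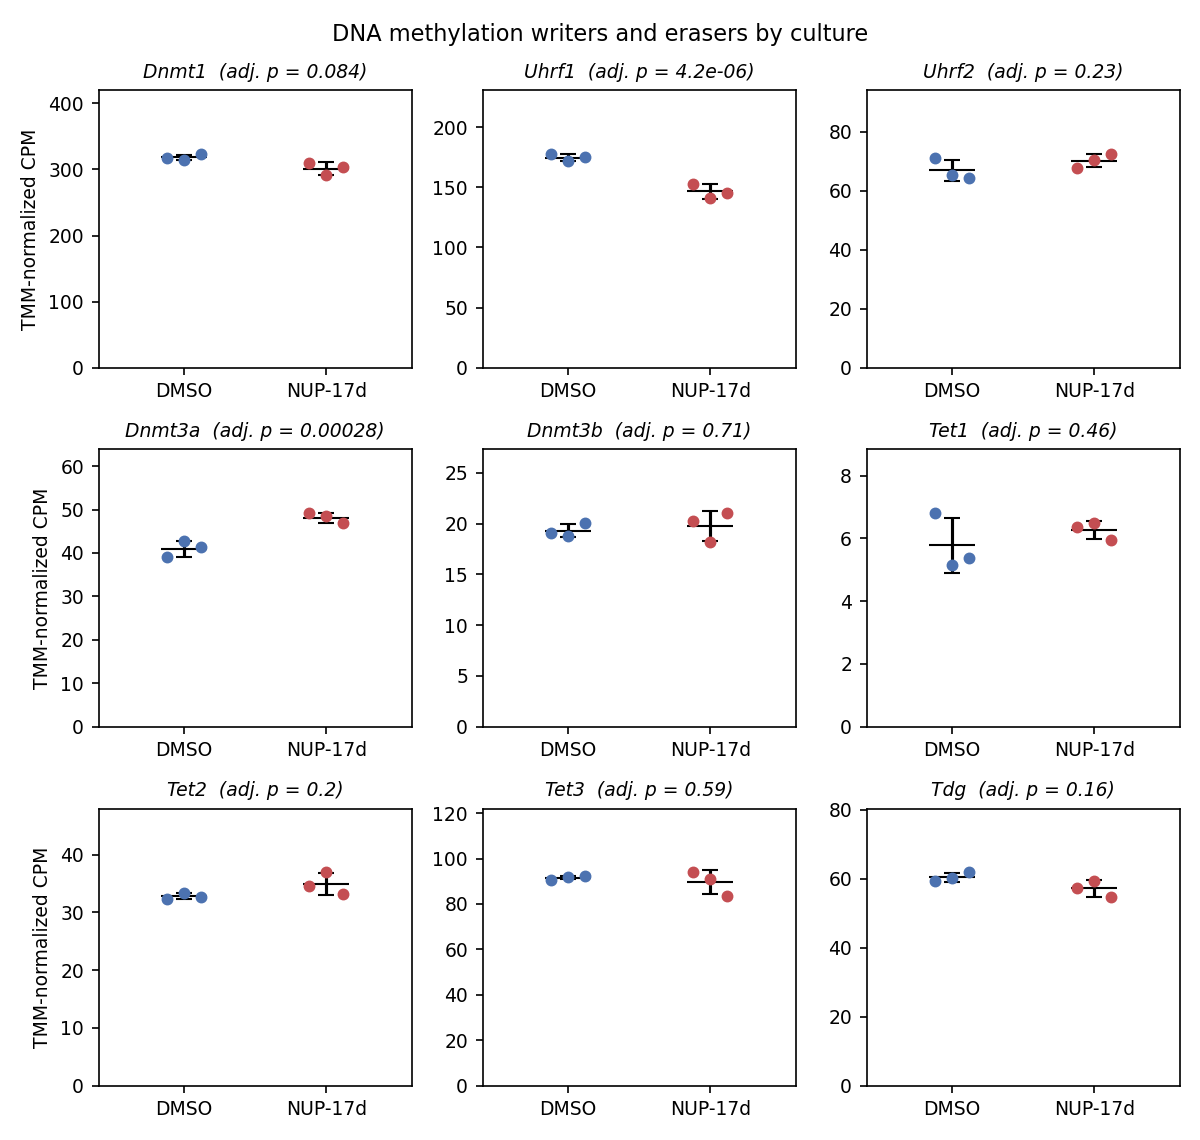
TMM-scaled CPM of each gene by culture, with 3 points per group, a horizontal line at the mean and a bar of 1 SD, and the edgeR adjusted p in each title. Uhrf1 sits lower and Dnmt3a higher in all 3 NUP-17d cultures on this scale, and the Dnmt1 groups lie just apart; with library totals alone Uhrf1 was not lower.

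Uhrf1, which brings DNMT1 to newly replicated DNA, had 177, 172 and 175 CPM in DMSO cultures and 153, 141 and 145 CPM in NUP-17d cultures. The lowest DMSO culture was above the highest NUP-17d culture. Uhrf1 fell by 16.1% (log2 fold change -0.25, SE 0.04, edgeR quasi-likelihood adjusted p = 4.19e-06), on the TMM scale, and was flat with library totals alone (log2 fold change 0.015, adjusted p = 0.739). Relative to the median of all tested genes its log2 fold change was -0.27 under either scaling. A change of scaling shifts all genes nearly alike, so this distance is kept by construction.

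Dnmt1, the maintenance methyltransferase itself, had 317, 314 and 323 CPM with DMSO and 310, 291 and 303 CPM with NUP-17d. All 3 NUP-17d cultures were below all 3 DMSO cultures, by a small margin. The log2 fold change was -0.08 (SE 0.03, 95% interval -0.15 to -0.01), and the adjusted p of 0.0838 from edgeR missed the threshold of 0.05. Leaving out single cultures gave adjusted p-values in edgeR from 0.0485, without NUP-17d replicate 1, the highest of its group, to 0.326, without NUP-17d replicate 2, at log2 fold changes of -0.099 and -0.053.

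Uhrf2, a paralog of Uhrf1 that does not replace it in maintenance methylation, had 71.0, 65.3 and 64.4 CPM with DMSO and 67.8, 70.4 and 72.3 CPM with NUP-17d. These groups overlapped, and the log2 fold change of 0.07 (SE 0.04) did not pass (edgeR adjusted p = 0.230). The interval of -0.02 to 0.16 leaves room for a rise of up to 11.7%.

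The paralogs were then set against each other within each culture, where the scaling of the library cancels. The log2 ratio of Uhrf2 to Uhrf1 FPKM was -1.35, -1.43 and -1.47 in DMSO cultures and -1.21, -1.03 and -1.04 in NUP-17d cultures. The groups did not overlap, and the ratio was 1.25 times higher with NUP-17d (difference 0.32, exact two-sided permutation p = 0.1, adjusted p = 0.2 over 6 ratios). In a design of 3 against 3 cultures, 0.1 is the smallest p this test can give. Uhrf2 thus accounted for 27.3 ± 0.861% of the summed UHRF FPKM in DMSO cultures and for 31.9 ± 1.50% in NUP-17d cultures.

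The log2 ratio of Dnmt1 to Uhrf1 was 0.24, 0.27 and 0.28 in DMSO cultures and 0.41, 0.45 and 0.46 in NUP-17d cultures. The groups did not overlap, with the ratio higher in all 3 NUP-17d cultures, but the adjusted p did not pass (difference 0.17, exact permutation p = 0.1, adjusted p = 0.2). This comparison does not depend on the choice of library factors.

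**Figure D3:**
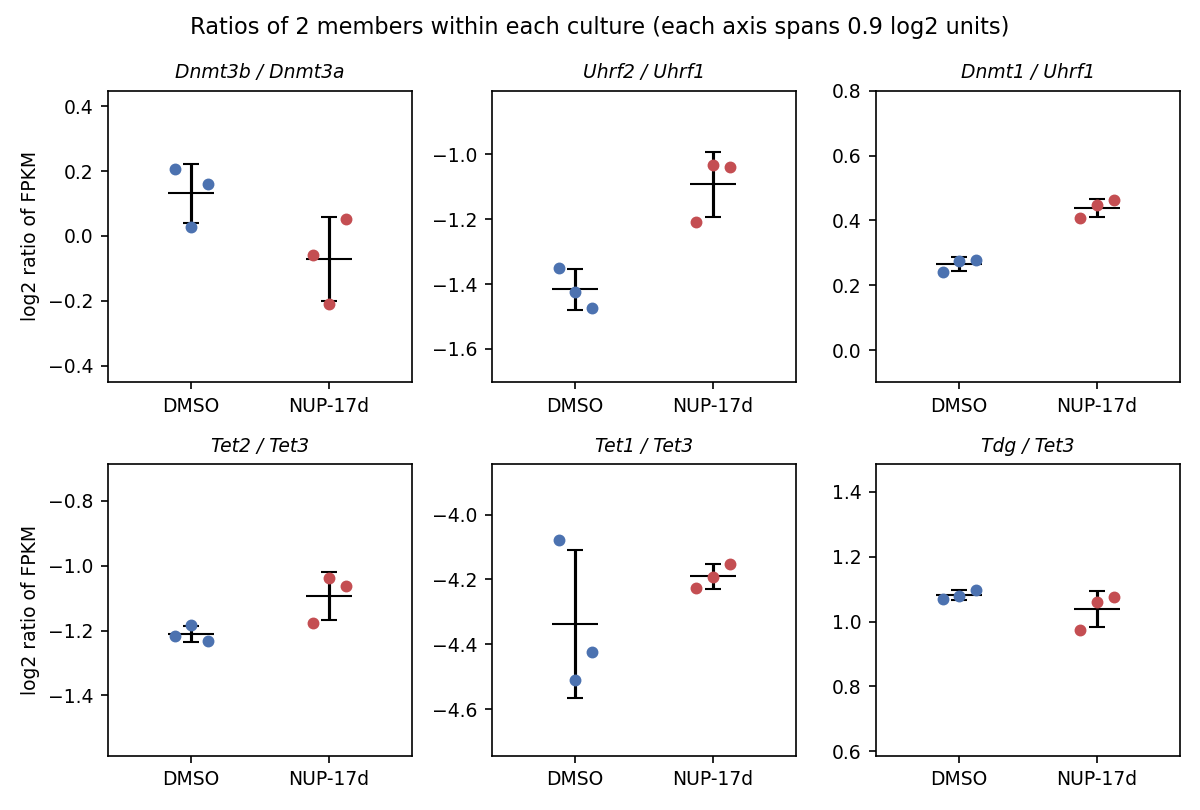
Log2 ratios of FPKM between 2 members of the same culture, with 3 points per group, the mean as a line and 1 SD as a bar; each axis spans 0.9 log2 units. Groups stand apart for Uhrf2 to Uhrf1, Dnmt1 to Uhrf1 and Tet2 to Tet3, and overlap for the other 3 ratios.

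Dnmt3a, a de novo methyltransferase active in blood stem and progenitor cells, had 39.0, 42.6 and 41.3 CPM with DMSO and 49.1, 48.5 and 46.9 CPM with NUP-17d. Every NUP-17d culture was above every DMSO culture. Dnmt3a rose by 17.4% (log2 fold change 0.23, SE 0.05, edgeR adjusted p = 0.000281), and with library totals alone the log2 fold change was 0.50 (adjusted p = 2.02e-08). Relative to the median of all tested genes the difference was 0.22, a quantity that the scaling leaves nearly unchanged for any gene.

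Dnmt3b, the other de novo enzyme, had 19.1, 18.8 and 20.0 CPM with DMSO and 20.2, 18.2 and 21.0 CPM with NUP-17d. The NUP-17d cultures spanned the whole DMSO range, and no change was detectable (log2 fold change 0.04, interval -0.10 to 0.17, edgeR adjusted p = 0.708). The log2 ratio of Dnmt3b to Dnmt3a was 0.21, 0.03 and 0.16 in DMSO cultures and -0.06, -0.21 and 0.05 in NUP-17d cultures. It was lower on average with NUP-17d, by -0.20, but the groups overlapped and the exact permutation p was 0.2 (adjusted p = 0.24).

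Within the DNMT class, the share of Dnmt3a in the summed FPKM was 6.26 ± 0.323% with DMSO and 7.59 ± 0.326% with NUP-17d. Dnmt1 accounted for 86.9 ± 0.299% and 85.2 ± 0.0747%, so it remained the bulk of DNMT transcript in both groups.

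None of the 4 eraser genes passed the test in edgeR on the TMM scale, with 0 at an unadjusted p under 0.05 and 0 called by DESeq2. Tet1, the TET gene best known from embryonic stem cells, had 6.80, 5.17 and 5.37 CPM with DMSO and 6.38, 6.50 and 5.96 CPM with NUP-17d. DMSO replicate 1 lay above all NUP-17d cultures and the 2 others below them, and the interval of -0.13 to 0.37 around the log2 fold change of 0.12 was the widest of the 9 (adjusted p = 0.463). Without DMSO replicate 1 the log2 fold change was 0.25, and without DMSO replicate 2 it was 0.047. At 97.7 to 145 expected counts per culture, Tet1 was also the member with fewest reads.

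Tet2, whose loss expands blood stem cells, had 32.3, 33.4 and 32.7 CPM with DMSO and 34.5, 36.9 and 33.2 CPM with NUP-17d. The groups overlapped by 1 culture, and the log2 fold change of 0.09 (SE 0.05) did not pass (edgeR adjusted p = 0.198). Tet3, the main TET transcript here, had 90.7, 91.8 and 92.3 CPM with DMSO and 93.9, 91.1 and 83.7 CPM with NUP-17d. The NUP-17d cultures lay on both sides of the DMSO range, with replicate 3 lowest (log2 fold change -0.03, edgeR adjusted p = 0.586), and without that replicate the value was 0.01.

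The log2 ratio of Tet2 to Tet3 was -1.22, -1.18 and -1.23 with DMSO and -1.18, -1.04 and -1.06 with NUP-17d. The groups did not overlap, although the nearest cultures differed only in the third decimal (difference 0.12, exact permutation p = 0.1, adjusted p = 0.2). The Tet1 to Tet3 ratio differed by 0.15 with overlapping groups (exact permutation p = 0.4), and by 0.28 without DMSO replicate 1 or 0.061 without DMSO replicate 2.

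Tdg, the glycosylase that removes oxidized methylcytosine, had 59.2, 60.2 and 61.8 CPM with DMSO and 57.4, 59.5 and 54.7 CPM with NUP-17d. The groups overlapped at 1 culture, with a log2 fold change of -0.08 and an edgeR adjusted p of 0.164. The Tdg to Tet3 ratio differed by -0.04 (exact permutation p = 0.2). The summed DNMT FPKM was 5.63 ± 0.0526 times the summed TET FPKM with DMSO and 5.42 ± 0.367 times with NUP-17d, with overlapping groups.

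**Figure D4:**
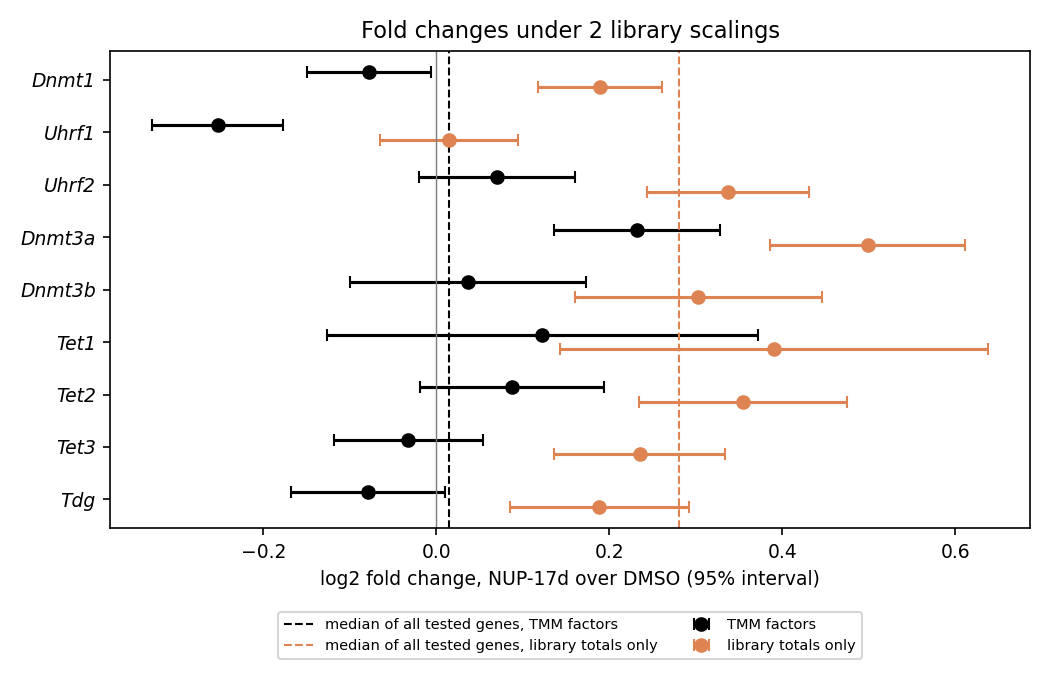
Log2 fold change of each gene, NUP-17d over DMSO, with its 95% interval, under TMM factors in black and library totals alone in orange; dashed lines mark the median of all tested genes, 0.01 and 0.28. With library totals 8 of 9 genes are called higher, against 68.7% of all tested genes, and Uhrf1 is at 0.015. Each gene keeps its distance from the median line by construction, as the scaling shifts all genes nearly alike.

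The scaling set the sign of 4 members besides its effect on the calls. With library totals alone 8 of 9 members were called higher and 0 lower, against 68.7% and 5.34% of all tested genes, with Dnmt1, Tet3 and Tdg at log2 fold changes of 0.19, 0.23 and 0.19 in place of values below 0. Distances from the median of all tested genes differed by under 0.01 between the scalings for each of the 9 members, for example -0.09 for Dnmt1 and 0.07 for Tet2 under both. This follows from the scaling, which shifts any gene by nearly the same amount, and is no separate result about the members.

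The rest of the methylation machinery was read from 5 lists, with 41 of 44 genes tested. On the TMM scale 4 genes were higher and 8 lower, 29.3% in all against 35.3% of all tested genes, with a median log2 fold change of -0.02 against 0.01 for all genes. With library totals alone 34 were higher and 2 lower, against 68.7% and 5.34% of all tested genes, at a median of 0.25 against 0.28.

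Among partners of the writers, 4 of 11 tested genes fell on the TMM scale and 1 rose, against 18.9% and 16.4% of all tested genes. Usp7, a deubiquitinase that stabilizes UHRF1 and DNMT1, had 418, 410 and 415 CPM with DMSO and 285, 268 and 286 CPM with NUP-17d. No culture of one group came near the other, and Usp7 fell by 0.57 on the log2 scale (SE 0.04, edgeR adjusted p = 7.41e-13). Hells, a chromatin remodeler needed for methylation of repeats, fell from 40.5 ± 0.725 to 32.8 ± 1.66 CPM (log2 fold change -0.31, edgeR adjusted p = 2.06e-05).

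Ehmt2, a histone H3 lysine methyltransferase, rose on the TMM scale from 92.6 ± 1.51 to 99.2 ± 1.75 CPM (log2 fold change 0.10, edgeR adjusted p = 0.0412). The replication clamp gene Pcna and the DNA ligase gene Lig1 were the other 2 that fell, by 0.19 and 0.21 on the log2 scale. The remaining 6 genes gave no call, and Dppa3 was not tested for low counts.

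Of 6 tested genes that act on TET enzymes or their cofactors, 2 rose and 1 fell on the TMM scale. The shares of all tested genes were 16.4% higher and 18.9% lower. Ogt, the O-GlcNAc transferase that binds TET proteins, fell from 590 ± 7.24 to 456 ± 6.80 CPM (log2 fold change -0.37, edgeR adjusted p = 9.54e-10). Cxxc5, a CG-binding protein that interacts with TET2, rose from 18.3 ± 1.23 to 24.0 ± 0.734 CPM (log2 fold change 0.39, edgeR adjusted p = 1.63e-05). Idh1, which makes the 2-oxoglutarate that TET enzymes consume, rose from 78.0 ± 1.70 to 93.9 ± 1.41 CPM (log2 fold change 0.27, edgeR adjusted p = 3.02e-06).

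In base excision repair 1 of 10 tested genes rose and 1 fell on the TMM scale, the glycosylase genes Smug1 (log2 fold change 0.31) and Neil3 (-0.13). A list of 9 genes held readers of methylated DNA and relatives of such readers, not all of which bind the mark. In it 2 fell, Mbd6 by 0.23 and Mbd2 by 0.10 on the log2 scale. Called in either direction were 20% of the base excision list and 22.2% of the reader list, against 35.3% of all tested genes. Of 5 genes that make or recycle the methyl donor 0 passed (1 at an unadjusted p under 0.05, and 0 by DESeq2). Leaving out DMSO replicate 2 or NUP-17d replicate 3 took the count of list genes called higher from 4 to 2.

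**Figure D5:**
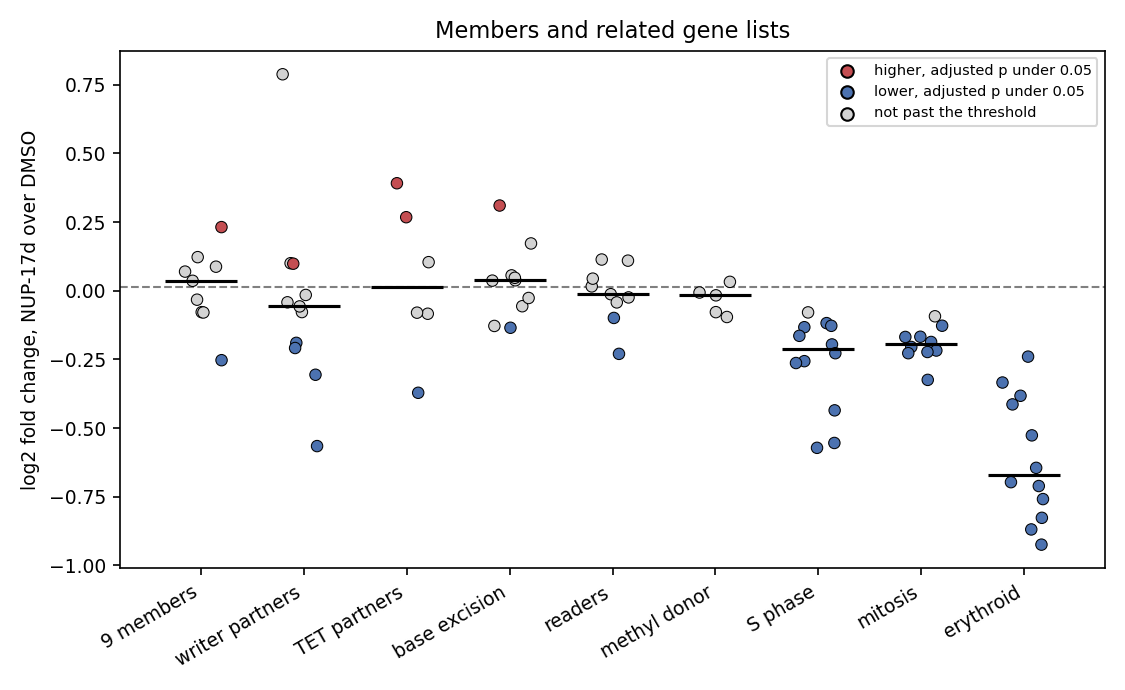
Log2 fold change on the TMM scale for every tested gene of the 9 members and of 8 lists, 1 point per gene, with red for higher, blue for lower and grey for genes past no threshold; black lines are list medians and the dashed line is the median of all tested genes. The members centre near the dashed line at 0.04, and the S phase and mitosis lists lie below it at -0.21 and -0.20. The erythroid list lies lowest at -0.67. With library totals alone the S phase and mitosis medians are 0.06 and 0.07, against 0.28 for all tested genes.

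Genes of cell division and of the red cell program moved in the same libraries. On the TMM scale 11 of 12 S phase genes fell, at a median log2 fold change of -0.21, among them Rrm2 by 0.57 and Ccne1 by 0.55. Of 10 mitosis genes 9 fell, at a median of -0.20. Among all tested genes 18.9% were lower on this scale. With library totals alone 5 of 12 S phase genes were higher and 3 lower, at a median of 0.06, and 5 of 10 mitosis genes were higher and 0 lower, at a median of 0.07. Among all tested genes 68.7% were then higher and 5.34% lower, at a median of 0.28. The summed level of the S phase list was 2093 to 2144 CPM with DMSO and 1752 to 1807 CPM with NUP-17d.

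Uhrf1 is itself a gene of late G1 and S phase, so each member was also expressed as a percentage of the summed S phase list of its own culture, a quantity chosen after the values were seen. Uhrf1 came to 8.27, 8.21 and 8.31% with DMSO and to 8.47, 8.06 and 8.11% with NUP-17d. The groups overlapped, with a log2 difference of -0.01 (exact permutation p = 0.9). Dnmt1 came to 14.8, 15.0 and 15.3% with DMSO and 17.1, 16.6 and 16.9% with NUP-17d, without overlap (difference 0.17, exact permutation p = 0.1).

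The summed S phase list itself fell by 0.25 on the log2 scale, and 67.5% of all tested genes were higher against it in all 3 NUP-17d cultures than in any DMSO culture, as were the 8 members other than Uhrf1. Dnmt3a differed most, at 1.94 ± 0.111% with DMSO and 2.70 ± 0.0764% with NUP-17d (log2 difference 0.48, exact permutation p = 0.1, adjusted p = 0.112 over 9 genes). These ratios are descriptions, and the part of the S phase genes in the Uhrf1 result was not tested.

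All 12 erythroid genes fell on the TMM scale, against 18.9% of all tested genes, at a median log2 fold change of -0.67. With library totals alone the median was -0.40, and 10 of 12 were called lower against 5.34% of all tested genes. The summed level of the erythroid list was 116658 to 131763 CPM with DMSO and 65445 to 73694 CPM with NUP-17d. Of 7 tested stem and progenitor genes 2 rose on the TMM scale, the receptor gene Kit by 0.19 and Meis1 by 0.18 in log2. The 5 others gave no call, so 28.6% were called against 35.3% of all tested genes. With library totals alone 7 of 7 were called higher, against 68.7% of all tested genes. The summed level of the list was 462 to 466 CPM with DMSO and 481 to 501 CPM with NUP-17d. The part of these cell type markers in the Dnmt3a and Uhrf1 results was not tested.

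Markers of other blood cells were present as well. Of the 6 megakaryocyte genes 4 rose on the TMM scale (352 to 388 against 403 to 425 CPM in sum). For 9 neutrophil genes the counts were 2 higher and 1 lower (3938 to 4106 against 4018 to 4298 CPM), and for 8 macrophage genes 2 higher and 2 lower (624 to 682 against 675 to 743 CPM). In the mast cell and basophil list 1 of 6 genes rose and 2 fell (212 to 228 against 188 to 194 CPM), and in the lymphoid list 2 of 6 fell, with the T cell gene Cd3e at 0.316 to 0.608 CPM. Over all tested genes 16.4% were higher and 18.9% lower. With library totals alone 6 of 6 megakaryocyte, 8 of 9 neutrophil and 5 of 8 macrophage genes were called higher and 0 lower. In the mast cell and basophil list 2 of 6 were higher and 0 lower, and in the lymphoid list 1 was higher and 1 lower. The shares of all tested genes were 68.7% and 5.34%. The part of these markers in the member results was not tested.

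The 4 members with CCAAT in at least 1 start region, Dnmt1, Uhrf1, Tet3 and Tdg, were the 4 with a log2 fold change below 0 on the TMM scale, although only Uhrf1 passed the test. The match depended on counting any window of a gene. The Dnmt1 window at chr9:20952930-20953229 held 0 CCAAT, and which start was used is not known. The match also rested on NUP-17d replicate 3, without which Tet3 was at 0.012 and Dnmt3b, which has no CCAAT, at -0.0096. Over all tested genes with a promoter window, 50.0% of 4216 genes with CCAAT and 45.3% of 5530 genes without it had a log2 fold change below 0, and 20.7% and 17.5% were called lower. The shared letters are a description of these windows and were noticed after the values were seen.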

How the data were processed

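Lineage-negative mouse bone marrow cells were cultured with EPO and DMSO or NUP-17d for 48 h, 3 cultures a group, as given by the labels. The authors deposited 1 table per culture with an expected count and an FPKM value per gene, from reads placed on mm10 per the labels; the aligner and the counter are not given in the sources used here. Per the labels mRNA was enriched with oligo(dT), primed with random hexamers and sequenced on DNBseq, whereas the methods describe a stranded Illumina kit, so strand use in counting is unclear; Dnmt3a, Tet1 and Tet3 overlap long noncoding genes with no row in the tables.

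A gene with no row in a table was set to 0. Deposited expected counts (27.8 to 28.5% of them not whole) were rounded and tested with edgeR 4.0.16 in R 4.3.3 (filterByExpr, TMM factors, quasi-likelihood test); p-values were adjusted by Benjamini-Hochberg across 12306 genes, at a threshold of 0.05. At 20076409 to 20419018 counts per culture the common coefficient of variation beyond counting error was 2.95%, and intervals are 95%. All replicate pairs differed by more than counting noise (chi-square per degree of freedom 1.83 to 4.54). Log2 ratios of deposited FPKM within a culture were compared by exact permutation in scipy 1.17.1; no pseudocount was needed. Alternatives were DESeq2 1.42.0, upper-quartile factors, library totals alone, no filter, hemoglobin genes removed, limma 3.58.1 on FPKM in log2 with a pseudocount of 1 or of 0.1, restricted to genes whose mean FPKM reached 1, a replicate block, and leaving out each culture. The fits were tested on simulated data; DESeq2 missed a first criterion on recovery of all changed genes, which was then replaced by one on well-counted genes.

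The members and gene lists were chosen with earlier results of these data known. Named were all 9 members, up to 2 rises and 2 falls from each methylation list, and up to 2 genes of lowest p from each division or marker list; Pcna, Lig1, Epor, Cd3e and Dppa3 were named after their values were seen. Some marker genes of the lists are not reported here. Promoter windows came from RefSeq (GRCm38.p6), with 14 windows matched by symbol for 9 of 9 members.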

Additional observations from a re-analysis of the deposited data

How the results depend on the processing

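Dnmt3a kept its direction and its call under every alternative, and Uhrf1 under all but library totals alone and limma on FPKM, neither of which corrects for composition. The 6 within-culture ratios kept their direction under the 9 alternatives run for them (counts for FPKM, a pseudocount, the block and single cultures left out). The block leaves these differences unchanged by construction, and counts for FPKM alter a ratio only through transcript length, so neither could readily reverse a direction. Leaving out single cultures gave 1 to 2 members called lower, 2 to 4 list genes called higher, and log2 fold changes of -0.099 to -0.053 for Dnmt1, -0.0096 to 0.096 for Dnmt3b, -0.068 to 0.012 for Tet3. Calls by library totals alone numbered 9115 (8458 higher, 657 lower), with 8 members higher and 0 lower and 34 list genes higher and 2 lower. In limma there were 8494 (7895 and 599) on log2(FPKM + 1) and 8480 (7880 and 600) on log2(FPKM + 0.1), each with 7 members higher and 0 lower; Tet1, with a mean FPKM under 1, had no limma value. DESeq2 called 1162 genes higher and 2 list genes higher, against 2019 and 4. In the order library totals, limma + 1 and limma + 0.1, log2 fold changes were 0.19, 0.19 and 0.19 for Dnmt1, 0.015, 0.018 and 0.018 for Uhrf1, 0.34, 0.32 and 0.34 for Uhrf2, 0.30, 0.25 and 0.29 for Dnmt3b, 0.35, 0.28 and 0.35 for Tet2, 0.23, 0.21 and 0.24 for Tet3, and 0.19, 0.18 and 0.19 for Tdg, and 0.39 for Tet1 with library totals; the cause of the DESeq2 difference was not tested.

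Same-numbered cultures did not detectably deviate together (correlations 0.03, -0.02 and -0.03, against -0.06 to 0.08 for different numbers). This does not settle whether cultures of the same number were prepared together. With the replicate number as a block Uhrf1 was at -0.25 and Dnmt3a at 0.23, and 4329 of 4346 calls were shared with the fit without it. Tet1, at 97.7 to 145 expected counts, is limited by depth.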
